A study of Mus musculus with 4 samples.

Results

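E2F1 chromatin immunoprecipitation sequencing (ChIP-seq) was performed on mouse embryonic stem cells (ESCs) in serum and in 2i, and 321 of the 4523 E2F1 peaks were consistently higher in 2i. These 321 peaks were selected on the measured values themselves: at each of them the smaller of the 2i values was at least 1.4 times the larger of the serum values. By the mirror rule, 319 peaks were consistently higher in serum, and 3883 peaks met neither rule. The rule was thus met by 7.1% of all peaks in the direction of 2i and by 7.05% in the direction of serum. Because the values of all 4 samples chose the peaks, every difference between serum and 2i given for them is a description and carries no test.

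Serum ESCs were kept in serum with LIF, and 2i ESCs were kept with LIF and PD0325901 (PD), an inhibitor of MEK, the kinase upstream of ERK, and CHIR99021 (Chiron), an inhibitor of GSK3. Per the labels, the cells had been adapted over 20 days to their condition. The data comprise 2 biological replicates per condition, and the ESC line used for ChIP-seq is not given in the labels. The values are normalized counts of reads per peak, and the reads behind them could be recovered because nearly all values are whole multiples of what 1 read is worth in that sample. Reads in peaks numbered 248878 and 450420 in the serum replicates, and 710519 and 395738 in those from 2i.

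E2F1 is the founding member of the E2F transcription factors, which bind short GC-rich elements near the transcription starts of genes for cell cycle entry and DNA replication. RB and its relatives p107 and p130 hold E2Fs in check until cyclin-dependent kinases (CDKs) phosphorylate them in G1, and INK4 proteins inhibit CDK4 and CDK6. In 2i, GSK3 inhibition stabilizes β-catenin, which acts on Wnt targets through TCF and LEF factors, whereas MEK inhibition lowers the expression of immediate early genes downstream of ERK.

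The sequences at the peaks are shown first, since the elements bound by E2F1 and by TCF and LEF factors are defined by their letters. The E2F motif was searched as TTTCCCGC, TTTGGCGC, TTTCGCGC or TTTGCCGC in either orientation up to 200 bp from the centre of the peak. It was present at 17 of the 321 peaks higher in 2i, or 5.30%, against 5.10% of all 4509 peaks that lie on placed chromosomes. The sites below were picked because the products of their genes are well known, from the cell cycle, DNA replication, transcription or metabolism. Each is 30 bases of the mm9 (NCBIM37) genome on the strand of its gene, 5′ to 3′, with the motif, read on either strand, in capitals.
Cdkn2a, chr4:88940604-88940633, minus strand: ctctgggaagcTTTCCCGCgcgactgggga
Rdbp, chr17:34987418-34987447, plus strand: cgtctcacatcTTTCGCGCcttccccgcgc
Rragc, chr4:123594977-123595006, plus strand: gctccggcgcaGCGGCAAAtcctccatcca
Mthfd1l, chr10:6372946-6372975, minus strand: ccgttcgtaggGCGGGAAAcagagaatgct
Timeless, upstream site, chr10:127669149-127669178, plus strand: tcagccgagtgGCGGGAAAggctgcgaccc
Timeless, downstream site, chr10:127669313-127669342, plus strand: tgagcggctacTTTCCCGCcgcgcggttga
Cep63, chr9:102528675-102528704, minus strand: ccgggccgcggGCGCGAAAaacccttaccc
Rel, chr11:23671045-23671074, minus strand: tgacgtaagcaGCGGGAAAtccccccccct

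The site at Cdkn2a lies 62 bases upstream of the nearest transcript start, and the pair at Timeless, the only peak higher in 2i with 2 matches, lies at -26 and +138 bases from its start. The 10 peaks with most matches were, after Timeless and by decreasing ratio, those at Cdkn2a, Rdbp, Nat8b, Polr2c, 1700017B05Rik, Snx30, Rragc, Mthfd1l and Synj1. Rdbp encodes a subunit of the negative elongation factor and Polr2c a subunit of RNA polymerase II. At Nat8b the match lies 3794 bases upstream of the nearest start. The same words without their first T, 7 letters long, occurred at 99 of the 321 peaks, or 30.8%, against 29.3% of all placed peaks.

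The TCF/LEF motif, searched as CTTTGAT on both strands, is shown because the first Axin2 peak and the Cdx1 peak, at Wnt targets, are among the 15 largest ratios. It occurred within 200 bp of the centre at 5 of the 321 peaks, or 1.56% (exact 95% interval 0.51 to 3.60), at 4 of the 317 placed peaks higher in serum, or 1.26%, and at 0.798% of all placed peaks. Both Axin2 peaks hold a match, and the others are at Bcat1, Ism2 and Hoxb9. The match at Bcat1 lies within 200 bp of the centre but just beyond the end of the peak. The sites follow in the same layout, with the motif in capitals.
Axin2, first peak, chr11:108781730-108781759, plus strand: agccggctgcgCTTTGATaaggtcctggca
Axin2, second peak, chr11:108782535-108782564, plus strand: cggccggcgcgCTTTGATgtgcggggcggc
Bcat1, chr6:145024681-145024710, minus strand: ggtagcaaatgaATCAAAGacgctttcaga
Ism2, chr12:88640927-88640956, minus strand: ggtggccgccagATCAAAGgagccgccccg
Hoxb9, chr11:96133293-96133322, plus strand: tgtcctgtctaATCAAAGagctggctacgg

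Longer stretches of 3 peaks show what the regions look like outside annotated exons. The first Axin2 peak and the Cdkn2a peak are promoters. The peak at 4930562A09Rik, 10280 bp downstream of the nearest start, had the lowest GC content of the 321 peaks, 42.6% within 200 bp of its centre. Capitals mark SP/KLF (GGGCGG), NFY (CCAAT) and the 7-letter E2F words on either strand. Adjacent or overlapping matches form 1 run of capitals.
Axin2, first peak, chr11:108781465-108781662, plus strand: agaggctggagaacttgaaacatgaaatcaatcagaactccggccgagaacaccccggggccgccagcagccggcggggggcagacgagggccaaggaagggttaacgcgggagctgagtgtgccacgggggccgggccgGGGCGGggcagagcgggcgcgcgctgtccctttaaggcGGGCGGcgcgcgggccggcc
Cdkn2a, chr4:88940558-88940857, minus strand: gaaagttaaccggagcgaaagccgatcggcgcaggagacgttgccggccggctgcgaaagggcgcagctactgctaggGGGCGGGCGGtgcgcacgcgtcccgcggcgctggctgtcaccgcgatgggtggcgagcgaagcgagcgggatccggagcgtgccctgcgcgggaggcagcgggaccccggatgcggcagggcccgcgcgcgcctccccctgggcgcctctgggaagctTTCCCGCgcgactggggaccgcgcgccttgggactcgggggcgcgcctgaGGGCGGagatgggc
4930562A09Rik, chr5:116832420-116832719, minus strand: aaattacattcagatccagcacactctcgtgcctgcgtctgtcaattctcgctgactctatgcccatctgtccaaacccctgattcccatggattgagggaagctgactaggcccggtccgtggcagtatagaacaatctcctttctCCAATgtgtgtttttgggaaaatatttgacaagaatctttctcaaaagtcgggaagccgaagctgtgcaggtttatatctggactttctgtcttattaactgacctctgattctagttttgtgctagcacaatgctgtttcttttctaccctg
The Axin2 stretch holds 2 SP/KLF words, the Cdkn2a stretch holds 3 SP/KLF words and 1 E2F word, and the 4930562A09Rik stretch holds 1 NFY word and none of the others. Of all placed peaks, 91.2% held GGGCGG and 19.8% held CCAAT within 200 bp of the centre.

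The peaks higher in 2i were weak ones for the most part. Their mean normalized count over the 4 samples had a median of 36.0, against 62.7 for all 4523 peaks and 72.9 for the peaks higher in serum. Of the 321 peaks, 163 fell in the lowest quartile of all peaks by mean signal, 81 in the second, 50 in the third and 27 in the highest, whereas the peaks higher in serum numbered 71, 73, 75 and 100 in the same order. The median number of reads at these peaks was 12 and 23 in the serum replicates, and 93 and 44 in those from 2i. In serum replicate 1, 131 of the 321 peaks had fewer than 10 reads.

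The ratio of the smaller 2i value to the larger serum value had a median of 1.68 and ranged from 1.4 to 8.12, and it was at least 2 at 75 peaks, at least 3 at 16 and under 1.6 at 121. The ratio of the means had a median of 2.26, and 219 of the 321 peaks (68.2%) had a log2 fold change above 1. Over all 4523 peaks the larger replicate exceeded the smaller by a median of 1.28 times in serum and 1.26 times in 2i. At the 321 peaks these medians were 1.29 and 1.21, but the rule favors peaks with close replicates. The rule also sets the conditions apart at every one of the 321 peaks, whereas both 2i values exceeded both serum values at 1103 of all peaks, or 24.4%. The peaks just inside the threshold were at Hs1bp3 (ratio 1.401), Spag9 (1.402) and Hoxc13 (1.405), and those just outside at Gpr85 (1.398), Kdm2b (1.397) and C430042M11Rik (1.397).

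Each peak was also fitted with limma on log2(normalized count + 1), as a call at a log2 fold change of 2i over serum above 1 and an unadjusted p under 0.05. This called 248 of all 4523 peaks higher in 2i, or 5.48%, and 207 of them are among the 321. After Benjamini-Hochberg adjustment 14 peaks were called, or 0.31% of all peaks, and all 14 are among the 321. They are the peaks at Nlgn2, 2510009E07Rik, Cdx1, Dleu2, Pde8a, Arih2, Cdkn2a, Rab11fip5, Ism2, Me1, Lrig1 and Cobl and both peaks at Axin2. Nothing is read from these counts, since the rule used the same contrast. The adjusted limma count was 119 with the replicate number as a block and 8 with chromosomes centred. Without serum replicate 1 or 2i replicate 2 it was 0, with 237 and 175 peaks called at the unadjusted p. The 207 became 78 without 2i replicate 1, 102 without 2i replicate 2, 128 with a pseudocount of 8 and 137 with cyclic loess. Of all peaks called in either direction 53.2% were higher in 2i, against 63.7% with the samples scaled to the same total and 41.7% with cyclic loess. The replicates show the spread between these samples only, and permuting 2 against 2 samples exactly cannot give a two-sided p below 0.333 for any one peak.

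**Figure D1:**
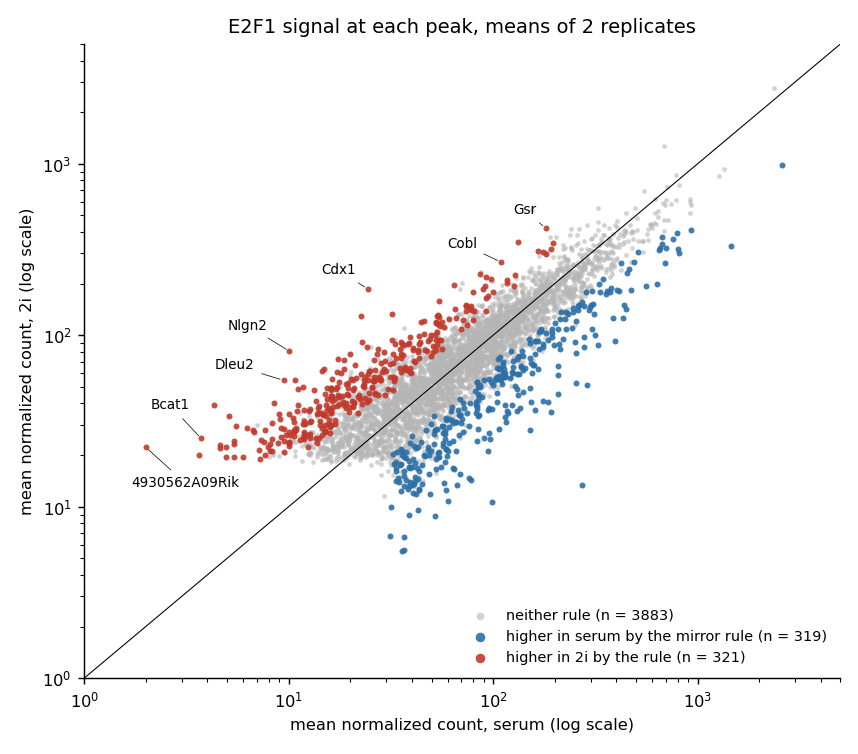
Mean normalized count in 2i against that in serum for each of the 4523 peaks, both axes on a log scale, with the 321 peaks higher in 2i in red, the 319 higher in serum in blue and the diagonal as a line. The red points lie mostly at low counts.

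The largest ratios were at genes of unlike function. The highest, at the intergenic peak nearest to 4930562A09Rik, rests on serum values deposited as 2 in both replicates, which are not a multiple of 1 read and were taken as 0 reads. There the 2i values were 16.2 and 28.2, from 29 and 27 reads, and against a floor of 3 reads in each serum sample the peak was at least 3.11-fold higher in 2i. The next was at Nlgn2, encoding a neuroligin of inhibitory synapses, with 8.71 and 11.4 in serum and 71.7 and 89.7 in 2i, a ratio of 6.26. Both 2i samples were far above both serum samples there.

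At Nup54, which encodes a nuclear pore protein, the values were 3.48 and 3.81 in serum and 21.3 and 18.8 in 2i. The serum values stand for 2 and 4 reads. The peak at 2510009E07Rik had 2 and 6.67 in serum, the former taken as 0 reads, and 49.3 and 29.2 in 2i. Bcat1, encoding the cytosolic branched-chain aminotransferase, had 1.74 and 5.72 in serum, which are 1 and 6 reads, and 23.0 and 27.1 in 2i. In these weak peaks the conditions are apart, but the ratios of 4.92, 4.38 and 4.01 rest on few serum reads.

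At Dleu2, the noncoding host gene of the microRNAs miR-15a and miR-16-1, the values were 12.2 and 6.67 in serum and 48.7 and 60.5 in 2i. The peak lies at the upstream starts of the gene. A second Dleu2 peak at the downstream start had 118 and 100 in serum and 98.5 and 146 in 2i, so that its conditions overlap. The ratio was 3.99 at the former and 0.83 at the latter.

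Pde8a, encoding a cAMP phosphodiesterase, had 20.9 and 24.8 in serum and 91.3 and 91.8 in 2i. Arih2, encoding an E3 ubiquitin ligase, had 15.7 and 19.1 in serum and 64.9 and 81.4 in 2i. Rab11fip5, encoding an effector of the recycling GTPase Rab11, had 20.9 and 19.1 in serum and 68.9 and 87.6 in 2i. Replicates of these 3 peaks were close to each other in both conditions. The remaining peaks with a ratio among the 15 largest were at Flrt2, Phf16 and Slit2, with ratios of 3.47, 3.44 and 3.14. Flrt2 encodes an adhesion protein of the cell surface and Slit2 the secreted ligand of Robo receptors, and their serum values were between 3.48 and 6.97. With cyclic loess the log2 fold change went from 2.10 to 1.07 at Flrt2, from 2.50 to 1.69 at Phf16 and from 1.97 to 1.02 at Slit2.

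**Figure D2:**
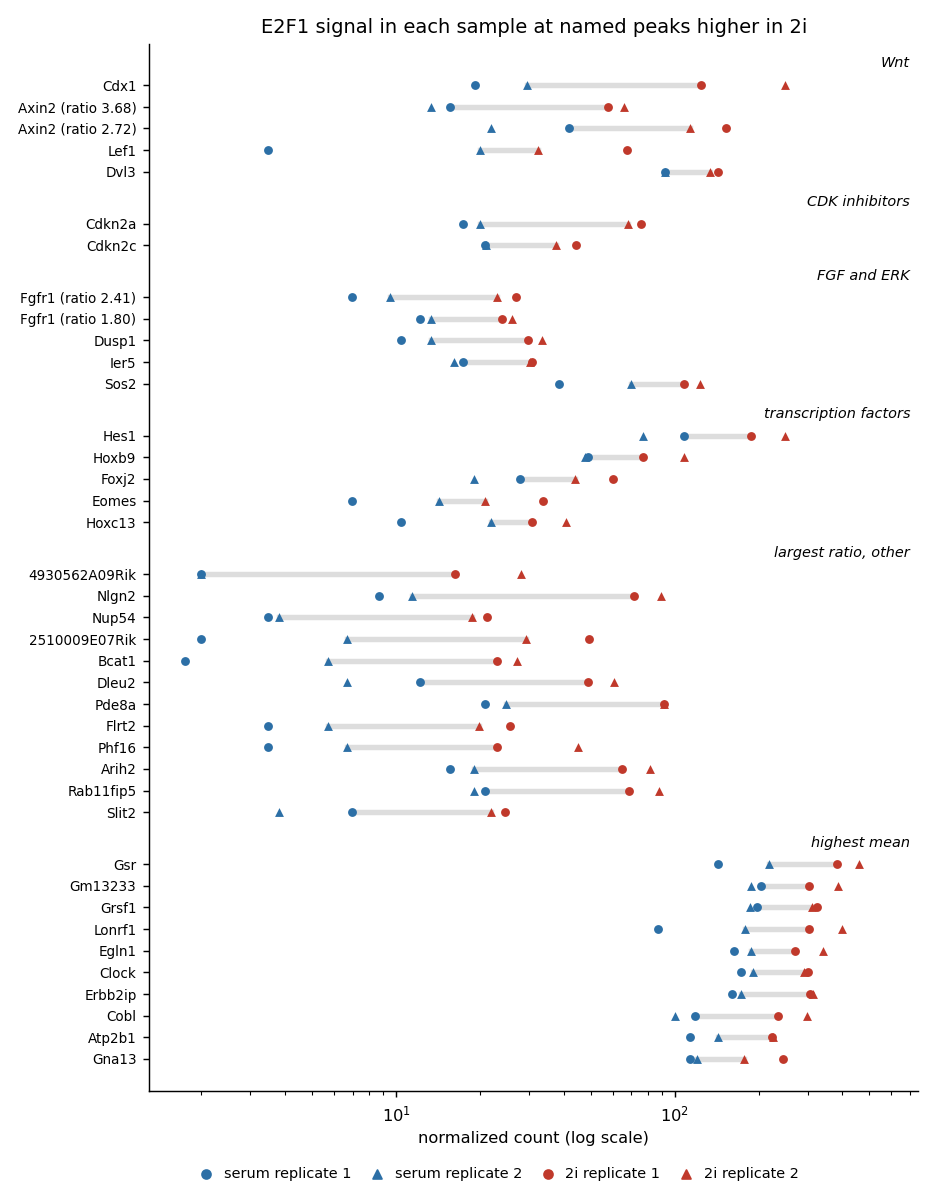
Normalized count (log scale) of each sample at the named peaks higher in 2i, grouped by role, with serum in blue and 2i in red, replicate 1 as circles and replicate 2 as triangles, and a grey bar over the gap between the larger serum and the smaller 2i value. As drawn, the gap is widest at 4930562A09Rik, where the serum values of 2 were taken as 0 reads, and at Nlgn2.

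Among Wnt pathway genes, Axin2, Cdx1 and Lef1, which are known β-catenin targets, had peaks that were higher in 2i. Most other peaks of the pathway were not. Both Nkd1 peaks (ratios 0.89 and 0.47) and those at Znrf3 (0.87) and Tcf7 (1.29) met neither rule. Of 34 peaks at 32 genes of a Wnt and β-catenin list, 5 were higher in 2i by the rule, which 7.1% of all peaks met. Only 1, at Dact1, was higher in serum. The 5 were the peaks at Cdx1 and Lef1, both at Axin2 and 1 at Dvl3. The median log2 fold change over the 34 peaks was 0.00, with 17 positive, against a median of 0.03 over all peaks. The members of the list were chosen with results of these data known, so the count is no independent evidence of a direction.

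Axin2, which encodes a scaffold of the β-catenin destruction complex and is itself induced by β-catenin, had peaks at 2 of its upstream annotated starts. At chr11:108781465-108781865, 2 bp from a start, the values were 15.7 and 13.3 in serum and 57.7 and 65.7 in 2i, a ratio of 3.68. At chr11:108782377-108782848, 38 bp upstream of another start, they were 41.8 and 21.9 in serum and 153 and 114 in 2i, a ratio of 2.72. Both 2i samples exceeded both serum samples by a wide margin at either peak, and the peak centres lie 947 bp apart.

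Cdx1, encoding a homeobox factor of the posterior embryo, had 19.2 and 29.5 in serum and 125 and 248 in 2i in its first exon, a ratio of 4.23. At Lef1, encoding a TCF/LEF factor, the peak lies 4317 bp upstream of the nearest start, and the values were 3.48 and 20.0 in serum and 67.2 and 32.3 in 2i. The replicates of Lef1 differed widely, and its ratio was 1.62. Dvl3, encoding a Dishevelled protein that transmits the Wnt signal from Frizzled receptors, had 92.3 and 92.5 in serum and 143 and 134 in 2i. The gene of β-catenin itself, Ctnnb1, had 345 and 337 in serum and 357 and 342 in 2i, a ratio of 0.99.

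Among G1/S regulators and CDK inhibitors, 2 of 10 peaks were higher in 2i, against 7.1% of all peaks, and 0 were higher in serum. The median log2 fold change over the 10 peaks was -0.09, with 4 positive. Both peaks higher in 2i are at INK4 genes. Cdkn2a had 17.4 and 20.0 in serum and 75.6 and 67.8 in 2i, a ratio of 3.39. The peak centre lies 137 bp upstream of the annotated start at 88940557 of chromosome 4, where the ARF transcript begins, and far from the start of the INK4A transcript at 88928096. Cdkn2c, encoding the CDK inhibitor p18, had 20.9 and 21.0 in serum and 44.2 and 37.6 in 2i, a ratio of 1.79.

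The other G1/S peaks did not meet the rule, and at the cyclin E gene Ccne1 the values ran the other way, with 375 and 341 in serum and 266 and 202 in 2i. None of 12 peaks at genes of the E2F and pocket protein families was higher in 2i by the rule (exact 95% interval 0 to 26.5%, against 7.1% of all peaks) and 2 were higher in serum, with a median log2 fold change of -0.30. DNA replication had 1 of 8 peaks and DNA repair 1 of 10, against the same 7.1%. At Rfc1, encoding the large subunit of the clamp loader, the values were 24.4 and 22.9 in serum and 72.8 and 40.7 in 2i. At Timeless, encoding a protein of the replication fork, they were 13.9 and 18.1 in serum and 43.7 and 27.1 in 2i.

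Of 33 peaks at 31 genes of an FGF and ERK list, 5 were higher in 2i and 11 were higher in serum, against 7.1% and 7.05% of all peaks, and the others met neither rule. The median log2 fold change over the 33 peaks was -0.21, with 11 positive. The 5 higher in 2i included both peaks at Fgfr1, encoding an FGF receptor, which lie 508 bp apart within a cluster of its annotated starts. The upstream one had 6.97 and 9.53 in serum and 26.9 and 22.9 in 2i, and the downstream one had 12.2 and 13.3 in serum and 24.1 and 26.1 in 2i. The conditions are apart at both, with ratios of 2.41 and 1.80. With cyclic loess their log2 fold changes went from 1.50 and 0.92 to 0.79 and 0.41.

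Dusp1, encoding a phosphatase that inactivates MAP kinases, had 10.5 and 13.3 in serum and 29.7 and 33.4 in 2i. Ier5, an immediate early gene, had 17.4 and 16.2 in serum and 30.8 and 30.3 in 2i, and Sos2, encoding an activator of RAS, had 38.3 and 69.6 in serum and 108 and 123 in 2i. The genes of the list that were higher in serum include Egr1, an immediate early target of ERK, with 361 and 186 in serum and 16.2 and 10.4 in 2i. At these peaks the conditions are apart by the rule or its mirror.

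Developmental transcription factors had 5 of 53 peaks higher in 2i, or 9.43% (3.13 to 20.7), near the 7.1% of all peaks, and 6 higher in serum. Hes1, a target and repressor of Notch signaling, had 108 and 77.2 in serum and 188 and 249 in 2i at 162 bp upstream of its start, a ratio of 1.74. The remaining 2 peaks near Hes1 were stronger, and their conditions overlapped. Hoxb9 (ratio 1.57) and Hoxc13 (1.405) are homeobox genes, Foxj2 (1.57) encodes a forkhead factor and its peak lies 8584 bp upstream of the start, and Eomes (1.46) encodes a T-box factor of mesendoderm. None of 11 peaks at genes of the pluripotency network was higher in 2i (interval 0 to 28.5%, which holds the 7.1% of all peaks), and 3 were higher in serum, against 7.05% of all peaks.

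Proteasome and ubiquitin genes, the longest list, had 9 of 121 peaks higher in 2i, or 7.44%, near the 7.1% of all peaks. Higher in serum were 3 of the 121, or 2.48%, against 7.05% of all peaks. Among the 9 the largest ratios were at the E3 ligase gene Rnf125 (2.62), the deubiquitinase gene Usp16 (2.19) and the F-box gene Fbxw11 (1.93). Next was Rnf7 (1.67), which encodes a RING subunit of cullin ligases. The list does not hold every gene of its kind, and Arih2 (ratio 3.41), described above, is not on it. Autophagy and lysosome genes had 3 of 16, against the same 7.1%, and 0 higher in serum. Their median log2 fold change was 0.34, with 13 of 16 positive, against 0.03 over all peaks. At Atp6v1h, encoding a subunit of the vacuolar proton pump, the values were 2 and 10.5 in serum, the former taken as 0 reads, and 20.7 and 36.5 in 2i. Rragc, encoding a RAG GTPase that signals amino acids to mTORC1, had 22.6 and 14.3 in serum and 39.2 and 42.8 in 2i. Atg16l1, encoding a protein of the autophagosome conjugation machinery, had a ratio of 1.48.

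The p53 and apoptosis list had 2 of 8 peaks higher in 2i, at Phlda3 (ratio 1.65), a p53 target, and Apaf1 (1.63), encoding the core of the apoptosome, against 7.1% of all peaks. The other 6 did not have a positive log2 fold change, 1 of them was higher in serum, and the median over the 8 was -0.14. Synapse genes had 2 of 26, at Nlgn2 and at Gphn (1.57), encoding the scaffold protein gephyrin, or 7.69%, near the 7.1% of all peaks, and 4 higher in serum, or 15.4% against 7.05%. Chromatin modifiers had 3 of 70, among them those at the histone demethylase genes Kdm3b (1.63) and Kdm3a (1.48), or 4.29% against 7.1% of all peaks, and 9 higher in serum, against 7.05%.

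The counts of the remaining lists are likewise set against the 7.1% of all peaks higher in 2i and the 7.05% higher in serum. Ribosomal protein and translation genes had 3 of 57 (Eif2b5, Rpl31 and Eif2s3x), solute carriers 3 of 73 (Slc37a3, Slc16a9 and Slc9a8), kinesin, dynein and cilium genes 2 of 20 (Cep63 and Cep78) and Zfp genes 2 of 89 (Zfp617 and Zfp703). Higher in serum were 5, 10, 0 and 7 peaks of these lists in the same order. Lists with 1 peak included axon guidance and cell adhesion (1 of 22, Slit2), splicing (1 of 26, Prpf38b) and TGF-β, BMP and Notch (1 of 32, Smad1). These lists had 1, 2 and 4 peaks higher in serum. The lists do not hold every gene of their kind, and each count covers the listed genes only. Flrt2, for one, is not on the adhesion list. None of 34 peaks at histone cluster genes was higher in 2i, and 21 of them, or 61.8%, were higher in serum. The count higher in 2i was also 0 of 17 for mitochondrial respiration, 0 of 8 for imprinted genes and 0 of 6 each for mitosis and for germline genes. Higher in serum were 0, 2, 0 and 1 peaks of these lists in the same order. No test was made of any list.

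**Figure D3:**
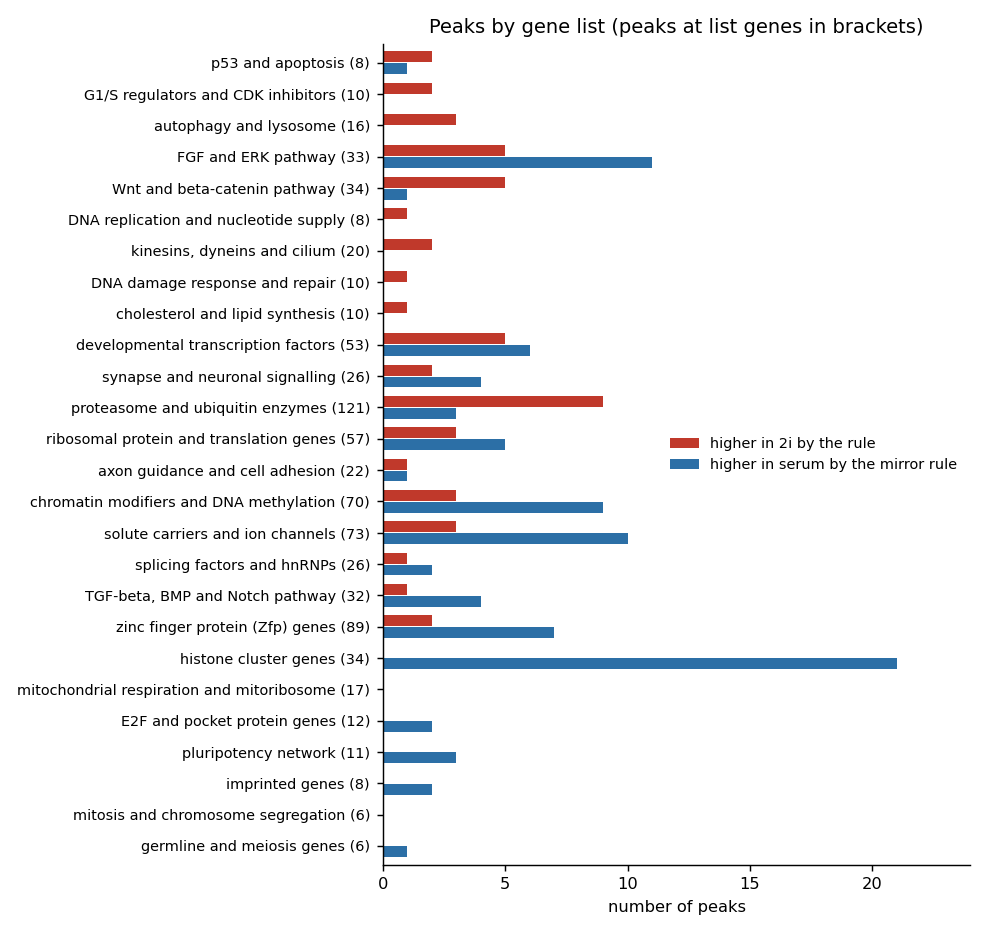
Number of peaks at the genes of each of the 26 lists that were higher in 2i by the rule (red bars) or higher in serum by the mirror rule (blue bars), with the number of peaks at list genes in brackets, sorted by the share higher in 2i. For the histone cluster genes the blue bar reaches 21 of 34 peaks and the red bar is at 0.

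The strongest peaks of the set were led by that at Gsr, encoding glutathione reductase, with 143 and 218 in serum and 382 and 459 in 2i. Lonrf1, encoding a RING finger protein, had 87.1 and 178 in serum and 304 and 398 in 2i, with the serum replicates apart. Cobl, encoding an actin nucleator, had 118 and 100 in serum and 235 and 299 in 2i. Of the 10 strongest peaks these 3 had a log2 fold change above 1, and without serum replicate 1 it was 0.94 at Gsr and 0.96 at Lonrf1. The other 7 of the 10 highest means were at Gm13233, Grsf1, Egln1, Clock, Erbb2ip, Atp2b1 and Gna13, with log2 fold changes from 0.71 to 0.90. Egln1 encodes the oxygen-sensing prolyl hydroxylase and Clock a circadian transcription factor.

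The peaks higher in 2i sat mostly at promoters, as did E2F1 peaks as a whole. By the peak centre, 220 of 321 (68.5%, exact 95% interval 63.1 to 73.6) lay from 1000 bp upstream to 100 bp downstream of a transcript start, against 65.6% of all placed peaks. Of the 317 placed peaks higher in serum the share was 49.8% (44.2 to 55.5). A further 27 lay in a 5′UTR, 35 in another exon, 25 in an intron, 14 between genes and 0 of 321 in a 3′UTR. The median distance to the nearest start was 92 bp, against 105 bp for all peaks and 185 bp for those higher in serum, and 54.5% of the centres were within 100 bp of a start, against 48.5% and 33.1%.

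The nearest gene was protein-coding at 302 of the 321 peaks, and the rest were at processed transcripts (5), lincRNAs (5), pseudogenes (5), microRNAs (3) and an snRNA. Starts on both strands lay within 1000 bp of the centre at 14.6% of the peaks and at 14.7% of all peaks. Peaks beyond 1000 bp from a start numbered 22, or 6.85%, against 8.72% of all peaks and 19.6% of those higher in serum. Within each quartile of mean signal the promoter share of the peaks higher in 2i was 63.8%, 79.0%, 66.0% and 70.4%, against 58.8%, 68.0%, 68.5% and 67.0% of all peaks, in order from the weakest. That of the peaks higher in serum was 35.7%, 52.1%, 51.4% and 57.0%.

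The 10 peaks farthest from a start were those nearest to Gm6158, Gm10384, U7, Eif2s3x, Gm12708, AC161366.1, Scaper, Robo4, Gm14486 and 4930562A09Rik, at 10280 to 65678 bp. That nearest to Gm12708 was the strongest of these, with 15.7 and 38.1 in serum and 79.5 and 75.1 in 2i. The peak in front of Scaper, 18528 bp upstream, holds an E2F motif 18 bp from its centre. At Gm10384 the serum values were 3.48 and 23.8 and the 2i values 38.6 and 43.8, so that the ratio of 1.62 was set by serum replicate 2.

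The words of 6 other factors were counted in the same windows. GGGCGG was present at 93.1% of the peaks higher in 2i, CCAAT at 20.9%, the ETS word CCGGAAG at 15.3% (11.5 to 19.7), the E-box CACGTG at 8.72%, the NRF1 word GCATGCGC at 4.05% and the CRE TGACGTCA at 2.49%. Over all placed peaks these shares were 91.2%, 19.8%, 13.6%, 9.94%, 3.95% and 1.69%. The peaks higher in serum had the ETS word at 5.36% (3.15 to 8.45) and GGGCGG at 78.2%. Median GC content within 200 bp was 73.6%, against 75.6% for all peaks. A match is a description of the letters, and the intervals cover counting error over peaks only.

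**Figure D4:**
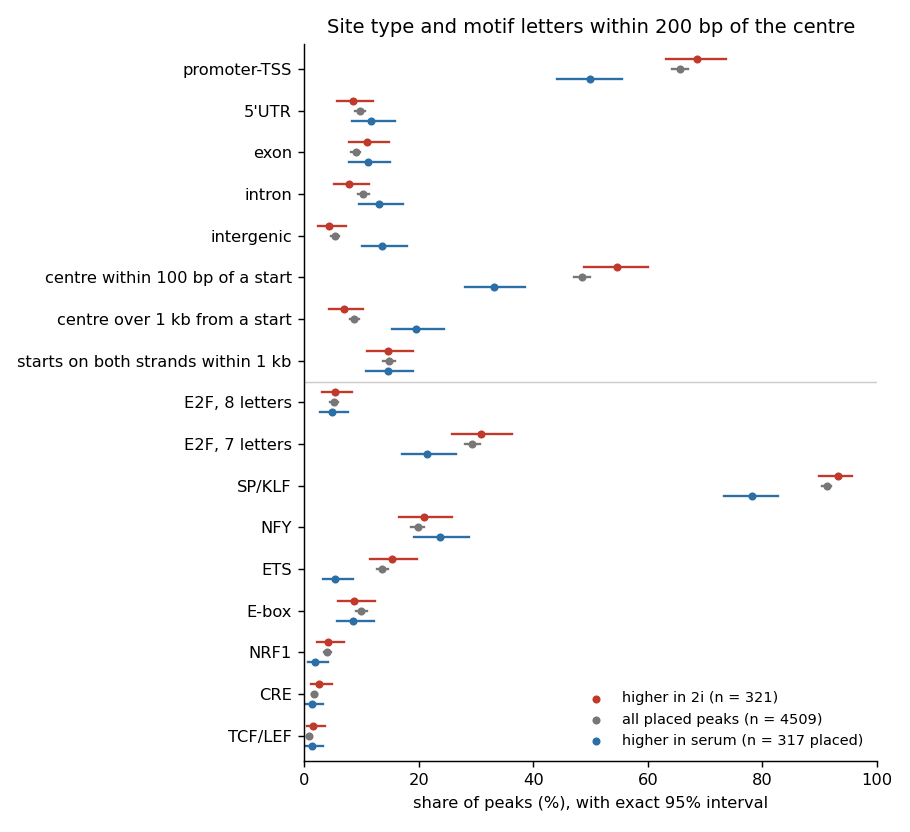
Share of peaks (%) by site type and distance to a start (upper rows) and with each motif within 200 bp of the centre (lower rows), for the peaks higher in 2i (red), all placed peaks (grey) and the peaks higher in serum (blue), with bars for exact 95% intervals. The red and grey points lie close together, and the blue points lie apart at promoter-TSS, at centres within 100 bp of a start and at the ETS and SP/KLF motifs.

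The 321 peaks were assigned to 318 genes, and 3 genes had 2 of them: Axin2, Fgfr1 and AC161366.1. A further 21 peaks outside the set lay at 19 of the same genes. Of these, 14 had a positive log2 fold change (66.7%, against 48.5% of all peaks outside the set), and 0 were higher in serum by the mirror rule. Within 100 kb of another peak of the set lay 24 of the 321 peaks, or 7.48%, and 53 of the 317 placed peaks higher in serum lay as near to another of theirs, or 16.7%. Besides those of a single gene, the closest were at Eif2b5 and Dvl3 on chromosome 16, 18094 bp apart, at Fam63b and Adam10 on chromosome 9 and at Gls2 and Timeless on chromosome 10.

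The share of peaks higher in 2i differed between chromosomes. It was highest on chromosome 9, with 33 of 250 peaks (13.2%, 9.26 to 18.0), followed by X with 12.3%, 6 with 11.8%, 16 with 15 of 150 peaks and 11 with 9.59%, and lowest on chromosome 17 with 3.18%. On chromosomes 6, 11 and 16 the peaks outside the set were shifted too, with median log2 fold changes of 0.32, 0.17 and 0.20, whereas on chromosome 9 their median was -0.02. On chromosome 9 the 33 peaks lay in 10 of the 13 windows of 10 Mb that hold a peak, and the largest number in a window was 8.

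The shift on chromosomes 6, 11 and 16 was uneven between replicates. Relative to the mean of the 4 samples, the median peak of 2i replicate 1 deviated by 0.25 on chromosome 6, 0.32 on 11 and 0.26 on 16, on the log2 scale, while 2i replicate 2 deviated by 0.09, -0.07 and -0.06. Serum replicate 1 deviated by -0.41 on chromosome 6, -0.13 on 11 and -0.11 on 16, and serum replicate 2 by 0.08, -0.10 and -0.18. On each of these chromosomes both serum samples lay below both 2i samples, in places narrowly. The number of copies of these chromosomes in the cultures was not measured here, and its part in the result was not tested.

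For centring, the median difference between 2i and serum on each chromosome was brought to that of all peaks by shifting both serum samples alike. Deviations of single replicates from each other were thus left in place. With chromosomes so centred, 276 of the 321 peaks still met the rule and 59 others came to meet it. Of the 45 that no longer met it, 42 were on chromosomes 6, 11 and 16. Among the peaks named above these were Dvl3, Hoxb9, Foxj2, Kdm3a, Gna13, Rel and Spag9, and Eif2s3x on the X chromosome. Nlgn2, 2510009E07Rik, Bcat1, Rab11fip5, Cobl, Hes1 and both Axin2 peaks still met it, with centred ratios of 5.40, 3.74, 3.13, 2.57, 1.71, 1.49, and 3.17 and 2.35 for Axin2. The count on chromosome 9 stayed at 33, and those on 6, 11 and 16 went from 28, 37 and 15 to 14, 15 and 9. The count on X went from 8 to 5, that on chromosome 1 from 18 to 28 and that on 19 from 5 to 17. After centring, chromosome 9 still had the highest share, followed by 1 and 19 with 11.3% each, and chromosome 11 had the lowest with 3.89%.

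**Figure D5:**
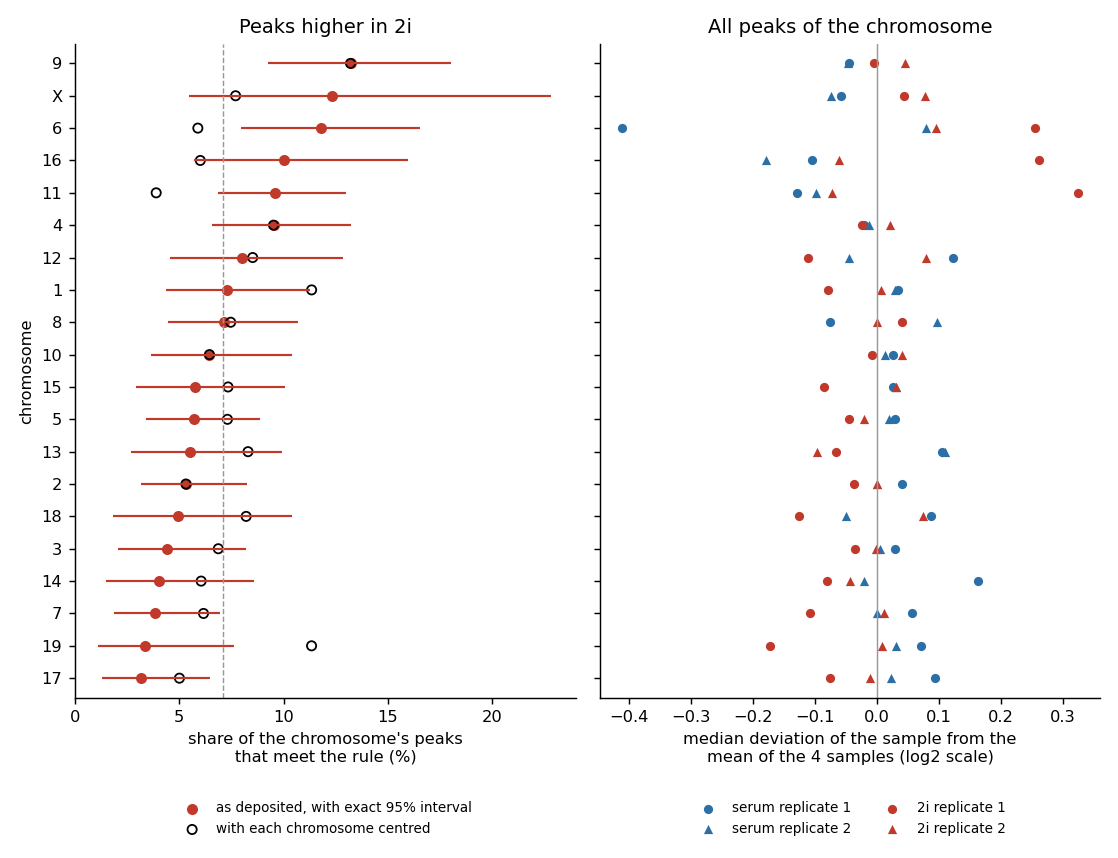
Left, share of the peaks of each chromosome that were higher in 2i by the rule (%), as deposited with exact 95% intervals (red) and after centring within chromosomes (open circles), with the share over all peaks, 7.1%, as a dashed line. Right, median deviation of each sample from the mean of the 4 samples over all peaks of the chromosome (log2 scale), where 2i replicate 1 stands apart on 6, 11 and 16 and serum replicate 1 on 6.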

How the data were processed

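E2F1 ChIP-seq was analysed in 2 serum and 2 2i replicates, grouped by the labels. After alignment to mm9 with BWA and removal of duplicates and blacklisted regions, the authors ran MACS2 on each sample, intersected the replicates, merged the conditions and counted reads with bedtools. They deposited a signal per peak and sample, that is, counts divided by a factor per sample. Of the deposited values 99.95% were whole multiples (within 0.01 read) of 1 read, worth 1.74 and 0.953 in the serum and 0.560 and 1.04 in the 2i replicates. The other 9 values, all exactly 2 in serum samples, were taken as 0 reads. Floors of 3 reads were 5.23, 2.86, 1.68 and 3.13 in that order. Intervals cover counting error only.

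All peaks were fitted with limma 3.58.1 (R 4.3.3, trended eBayes, no block) on log2(signal + 1). As a check, edgeR 4.0.16 and DESeq2 1.42.0 were run on the recovered reads. Same-numbered replicates did not deviate together (correlation of same-numbered deviations 0.048 over 4523 peaks). With 2 replicates this cannot settle whether they were handled in pairs, and the labels do not say. Genes were assigned by the nearest transcript start to the peak centre in GENCODE M1 on NCBIM37 (Python 3.11.15, scipy 1.17.1), and 14 peaks on unplaced contigs, none in the set, were left out of annotation. Peak starts are printed as deposited, and whether they count from 0 is not stated in the sources used here; sequence coordinates are 1-based. The named peaks are the 15 largest ratios, the 10 highest means, up to 4 per gene list by ratio, genes with 2 or more peaks, the 3 either side of the threshold, the 10 farthest from a start and the 10 with most E2F matches. The peaks and lists were chosen with earlier results of these data known. Alternatives were other thresholds, pseudocounts, filters, scalings, windows and annotations, and leaving out each replicate. Some peaks are not reported here by gene name.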

Additional observations from a re-analysis of the deposited data

How the results depend on the processing

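The number of peaks that met the rule in the direction of 2i was 588 at 1.2 times, 75 at 2 times, 104 with a minimum mean of 50 and between 589 and 787 with a replicate left out, which loosens the rule. It was 253 with 8 added to each value, 416 at the same total, 250 with cyclic loess (224 of them among the 321) and 335 with chromosomes centred. The limma count of peaks higher in 2i was 152 with a pseudocount of 8, 67 with a minimum mean of 50 and between 141 and 391 with a replicate left out, the extremes being without 2i replicate 1 and without serum replicate 2. It was 267 with edgeR and 186 with DESeq2. The cause of these changes was not tested.

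The share of the peaks at a promoter-TSS was 90.3% for 500 bp either side of a start (87.6% of all placed peaks), 87.2% by any overlap (87.0%), 60.1% with protein-coding transcripts (57.1%) and 62.7% at 2 times. The share with an E2F motif was 2.18% within 100 bp (2.00% of all placed peaks) and 30.8% for the 7-letter words (29.3%). At 2 times it was 2.67% (2 of 75 peaks), and with a minimum mean of 50 it was 1.92% (2 of 104). The share on chromosomes 11 and 16, 16.2% as deposited against 11.9% of all placed peaks, was 10.7% at 2 times, 23.1% with a minimum mean of 50 and 7.16% with chromosomes centred.

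Whether same-numbered replicates were handled in pairs is not known. With the replicate block, limma called 278 peaks higher in 2i and 119 after adjustment, against 248 and 14 without it, and 204 of the 321. The 31 named peaks tested this way were chosen by the rule, so that the sign of their fold change is not read as stable. Counting each of them under each alternative, the side of the limma threshold was kept 355 times, the call was lost 26 times and a call was gained 4 times. Depth limits the weak peaks, where serum replicate 1 holds few reads.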

Other observations

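Some peaks higher in 2i outside the lists were picked after their values were seen, because their genes encode metabolic enzymes or, at Keap1, a regulator of the antioxidant response, and are given as values without a test. Besides Gsr, they include Me1, encoding the cytosolic malic enzyme that makes NADPH, with 48.8 and 42.9 in serum and 120 and 123 in 2i. Keap1, encoding the sensor that restrains the antioxidant factor NRF2, had 101 and 82.9 in serum and 175 and 154 in 2i, with its peak in the 5′UTR 425 bp from the start. Txnrd3, encoding a thioredoxin reductase, had 10.5 and 13.3 in serum and 33.6 and 20.9 in 2i, and on centring its chromosome, 6, it no longer met the rule.

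Asns, encoding asparagine synthetase, had 26.1 and 22.9 in serum and 53.7 and 55.3 in 2i. Gfpt1, encoding the first enzyme of hexosamine synthesis, had 48.8 and 56.2 in serum and 131 and 103 in 2i. Rpia, encoding an isomerase of the pentose phosphate pathway, had 8.71 and 12.4 in serum and 36.4 and 29.2 in 2i. Gls2, encoding a glutaminase, had 10.5 and 21.9 in serum and 34.2 and 54.2 in 2i. Asns, Gfpt1 and Rpia also lie on chromosome 6, and on centring their ratios went from 2.06, 1.84 and 2.36 to 1.61, 1.43 and 1.84. In each of these the conditions are apart, as the rule requires, and the serum values of Rpia and Gls2 rest on 5 to 23 reads.

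The set also held the histone genes H1f0 and H2afy, which lie outside the histone clusters and were picked after their values were seen. H1f0, encoding the linker histone of quiescent and differentiating cells, had 34.8 and 43.8 in serum and 108 and 87.6 in 2i. H2afy, encoding macroH2A1, had 64.5 and 131 in serum and 193 and 234 in 2i, with the serum replicates apart.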
